A study of Mus musculus with 26 samples.

Results

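The genes described here are those of the mouse proteasome, taken as every gene whose symbol begins with Psma, Psmb, Psmc, Psmd, Psme or Psmf. Of 18194 genes that had a probe set with 1 symbol on the array, 45 met this rule, with 95 probe sets between them, and each gene was represented by its brightest probe set. Of the 45, 43 lay above the brightness threshold (a mean log2 signal of 7.93) and were tested. Psma8, the testis form of an α subunit, and Psmb11, the thymus form of a catalytic subunit, had mean log2 signals of 7.02 and 6.09 and were not tested. Psmc3ip, a partner of the meiotic recombinases, and Psme3ip1, which binds the activator encoded by Psme3, share the name but are not subunits. The probe set for Psme2 carried a second symbol as well, so the gene is not among the 45.

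RNA came from the medial side of the knee of male C57BL/6 mice after destabilization of the medial meniscus (DMM), an operation that cuts the ligament anchoring the medial meniscus and leads to osteoarthritis, or after sham surgery. Surgery was done at 12 weeks of age, and tissue was taken 2, 4, 8 or 16 weeks later, at 14, 16, 20 and 28 weeks of age. The time 0 mice were 12 weeks old and had no operation. Each array held RNA pooled from 3 mice, with 3 pools in each of the 9 groups except DMM at 2 weeks, which had pools 2 and 3, because the RNA of the other pool was not intact enough. A pool mixed articular cartilage and meniscus with the bone beneath, outgrowths of that bone, capsule and synovium, so a signal is a mean over many cell types. In such bulk tissue, fewer cells of a type and less RNA per cell cannot be told apart.

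The proteasome is the barrel-shaped protease that degrades proteins tagged with ubiquitin. Its core particle has outer rings of α subunits, which gate the entrance, and inner rings of β subunits, of which Psmb5, Psmb6 and Psmb7 encode the constitutive catalytic ones. Interferon γ induces Psmb8, Psmb9 and Psmb10, which take the places of Psmb5, Psmb6 and Psmb7 in newly built core particles to make the immunoproteasome. This form is plentiful in leukocytes and produces peptides for MHC class I molecules. A regulatory particle of ATPases (Psmc genes) and non-ATPases (Psmd genes) recognizes, unfolds and threads in the substrate, while other activators (Psme genes) and the inhibitor protein encoded by Psmf1 dock at the same ends of the core.

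The upstream sequences of 1 inducible and 1 constitutive catalytic gene are shown because the comparisons below turn on the catalytic genes. They are the RefSeq bases (GRCm38.p6) before each gene's start, printed 5′ to 3′ on the gene's strand, with the matched letters in capitals. The stretch for Psmb9, chr17:34187331-34187555 on the minus strand, is the whole interval between its start and that of Tap1, which is transcribed the other way, and has the reverse complement of CCAAT. That of Psmb5, chr14:54617996-54618245 on the minus strand, holds TGACNNNGC, the core letters of the antioxidant response element.
Psmb9: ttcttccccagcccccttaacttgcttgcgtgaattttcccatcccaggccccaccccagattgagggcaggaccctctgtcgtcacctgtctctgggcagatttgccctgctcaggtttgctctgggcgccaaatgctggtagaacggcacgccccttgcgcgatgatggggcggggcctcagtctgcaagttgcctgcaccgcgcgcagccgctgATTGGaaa
Psmb5: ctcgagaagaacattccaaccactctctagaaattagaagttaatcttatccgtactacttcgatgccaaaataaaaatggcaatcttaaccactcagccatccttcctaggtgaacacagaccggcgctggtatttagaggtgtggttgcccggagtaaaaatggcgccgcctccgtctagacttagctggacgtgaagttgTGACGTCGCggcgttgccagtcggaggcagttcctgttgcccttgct

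The first matched letter lies 8 bases before the start of Psmb9 and 47 bases before that of Psmb5. Upstream stretches of 250 bases were found by symbol for 38 of the 45 genes and for 27025 genes in all, and each motif was searched on both strands. TGACNNNGC was present in 5, namely Psmb5, Psmb6, Psmc6, Psmd12 and Psmd9, and in 11.5% of all genes. CCAAT was present in 16 of the 38 and in 37.5% of all genes. Overlaps between the motifs were not screened, Psmb9 was searched over its whole 250 bases although the 225 up to Tap1 are printed, and a match is a description of letters only. On chromosome 17 of the same build, Psmb9 (34182030 to 34187330), Tap1 (34187556 to 34197225), Psmb8 (34198195 to 34201454) and Tap2 (34204479 to 34216321) are neighbours, and 10864 bases separate Psmb9 from Psmb8.

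All 26 arrays were alike in overall signal, with medians between 7.9 and 7.95 on the log2 scale and correlations between arrays of 0.958 to 0.996. Markers of chondrocytes averaged 10.13 to 12.63 per array and those of osteoblasts 10.94 to 12.51. Each marker mean used only genes that had passed the brightness threshold. Skeletal muscle markers, for a tissue that is not named in the dissection, ranged from 9.71 to 13.4. The ratio of 3′ to 5′ signal for Gapdh, a sign of RNA quality, lay between 0.21 and 0.56 on the log2 scale. It was 0.21 to 0.28 at time 0, 0.31 to 0.38 in sham pools at 2 weeks and 0.28 to 0.49 in DMM pools at 2 weeks. Only the sham pools at 8 weeks (0.23 to 0.35) and the DMM pools at 16 weeks (0.24 to 0.34) overlapped with time 0.

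The inducible catalytic genes had their lowest group means in the DMM pools at 2 weeks. Psmb9 was lower after DMM than after sham surgery at 2 and 4 weeks, Psmb8 was lower at 4 weeks, and Psmb10 passed the test in neither comparison. At 8 and 16 weeks none of the 3 differed from sham by the test. Differences below are log2 ratios of DMM over sham with their standard errors, and the tests are limma's moderated test with Benjamini-Hochberg adjustment over all 22499 probe sets above the threshold.

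Psmb9, which takes the place of Psmb6, read 9.93 and 9.75 in the DMM pools at 2 weeks, against 10.4, 10.19 and 10.18 in the sham pools, all on the log2 scale. Both DMM pools were below every sham pool. The log2 ratio was -0.41 ± 0.11, a signal ratio of 0.751, with an adjusted p of 0.046. At 4 weeks the DMM pools read 10.35, 10.18 and 10.17 and the sham pools 10.59, 10.53 and 10.55, again without overlap, and the log2 ratio was -0.32 ± 0.10 (adjusted p = 0.0251). At 8 weeks the groups overlapped, with 10.52, 10.32 and 10.54 after DMM and 10.56, 10.41 and 10.85 after sham surgery. At 16 weeks they overlapped too (10.41, 10.47 and 10.5 against 10.41, 10.62 and 10.57). The call at 2 weeks was lost without sham pool 1 (-0.34, adjusted p = 0.247), DMM pool 2 (-0.50, adjusted p = 0.0917) or DMM pool 3 (-0.32, adjusted p = 0.256), and that at 4 weeks was kept only without DMM pool 1 (-0.38, adjusted p = 0.0156), with adjusted p of 0.0512 to 0.0996 without each of the others.

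Psmb8, which takes the place of Psmb5, read 10.56 and 10.55 after DMM at 2 weeks and 11.01, 10.87 and 10.82 after sham surgery. The groups were apart, but the log2 ratio of -0.34 ± 0.12 missed the threshold (adjusted p = 0.111). At 4 weeks the DMM pools read 10.99, 10.91 and 10.74 and the sham pools 11.24, 11.2 and 11.24, and the log2 ratio was -0.35 ± 0.10 (adjusted p = 0.0242), a signal ratio of 0.786. At 8 weeks 11.07, 11 and 11.29 stood against 11.26, 11.08 and 11.55, and at 16 weeks 11.27, 11.11 and 11.22 against 11.08, 11.32 and 11.28. Both later sets overlapped. The call at 4 weeks was likewise kept only without DMM pool 1 (-0.40, adjusted p = 0.0167), with adjusted p of 0.0554 to 0.122 without each of the others. A second, dimmer probe set for Psmb8 (mean log2 signal 9.35) was not called in these comparisons, with ratios of -0.09 (adjusted p = 0.703) and then -0.04 (adjusted p = 0.79), so the lower signal was seen by the brighter probe set alone. Psmb9 and Psmb10 had 1 probe set each.

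Psmb10, which takes the place of Psmb7, read 10.38 and 10.36 after DMM at 2 weeks and 10.63, 10.57 and 10.7 after sham surgery. At 4 weeks it read 10.56, 10.5 and 10.37 against 10.8, 10.61 and 10.62. The DMM pools were below the sham pools at both times, with log2 ratios of -0.27 ± 0.08 (adjusted p = 0.0906) and -0.20 ± 0.08 (adjusted p = 0.0678). At 8 and 16 weeks the ratios were -0.02 and 0.00. The tests of whether the DMM effect at 2, 4 or 16 weeks differed from that at 8 weeks called none of the 43 genes, with 4, 9 and 3 at an unadjusted p under 0.05. Over all 11496 genes these tests called 0%, 1.62% and 0%, with 16.8%, 29.5% and 10.9% at that unadjusted level.

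**Figure D1:**
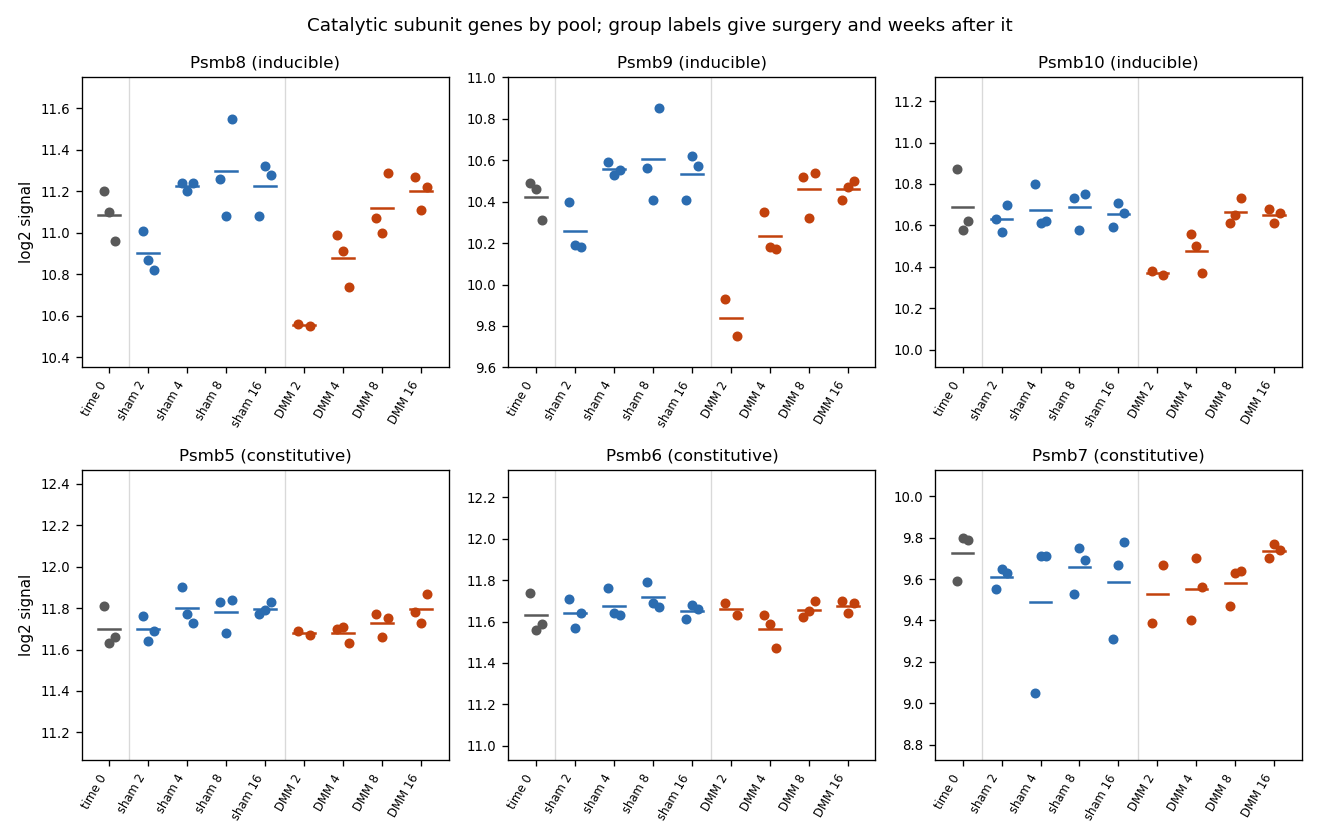
The log2 signal (vertical axis, the same span of 1.4 in each panel) of the inducible genes Psmb8, Psmb9 and Psmb10 and of the constitutive genes Psmb5, Psmb6 and Psmb7 is plotted for time 0, sham and DMM groups, with 1 point per pool and a bar at the group mean. The DMM pools at 2 weeks are the lowest for Psmb8 (10.55 and 10.56) and Psmb9 (9.75 and 9.93), while Psmb5 stays between 11.63 and 11.9.

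The constitutive partners did not pass the test in any DMM comparison with sham. Psmb5 lay between 11.63 and 11.9 over the 26 arrays, with log2 ratios of -0.01 ± 0.07 at 2 weeks and -0.12 ± 0.06 at 4 weeks (adjusted p = 0.177). Psmb6 lay between 11.47 and 11.79, with ratios of 0.02 ± 0.07 and -0.11 ± 0.06 (adjusted p = 0.187). Psmb7 lay between 9.05 and 9.8, its lowest value coming from 1 sham pool at 4 weeks, and its ratios were -0.08 ± 0.16 and 0.06 ± 0.14. Each of these genes had 1 probe set.

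To set the inducible genes beside the constitutive ones, the mean log2 signal of Psmb5, Psmb6 and Psmb7 was subtracted from that of Psmb8, Psmb9 and Psmb10 on each array. Only changes in this difference carry meaning, since signals of different probe sets share no scale, and no test was made of it. It averaged -0.29 at time 0 (-0.38 to -0.19), -0.39 in the sham pools at 2 weeks (-0.42 to -0.33) and -0.70 in the DMM pools at 2 weeks (-0.77 to -0.63). At 4 weeks the sham pools averaged -0.17 (-0.26 to -0.02) and the DMM pools -0.40 (-0.47 to -0.28). DMM pools were thus lower than sham pools without overlap by -0.32 at 2 weeks and by -0.23 at 4 weeks, with pooled SDs of 0.07 and 0.12. The inducible mean moved by -0.34 and -0.29 in these comparisons and the constitutive mean by -0.02 and -0.06. At 4 weeks the constitutive mean joins signal ratios of 0.92 for Psmb5 and 0.925 for Psmb6 with 1.04 for Psmb7. Sham pool 1 at 4 weeks held both the lowest Psmb7 value (9.05) and the difference of -0.02. At 8 weeks the groups overlapped (-0.05, SD 0.13). At 16 weeks they did not (-0.09, SD 0.04), with DMM pools at -0.32 to -0.27 and sham pools at -0.25 to -0.16, where neither mean had moved by more than its SD of 0.07. The sham groups overlapped with time 0 at all 4 times, with shifts of -0.10, 0.12, 0.10 and 0.08.

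Markers of several cell types moved with these genes. Fibroblast matrix markers (means of 14.37 to 14.48 after DMM and 13.4 to 14.18 after sham surgery at 2 weeks, 13.64 to 14.2 and 13.03 to 13.36 at 4 weeks) and endothelial markers (9.88 to 9.97 and 9.57 to 9.86, then 9.62 to 9.84 and 9.28 to 9.48) were higher in the DMM pools without overlap. Adipocyte markers (10.3 to 10.31 and 10.67 to 11.1, then 10.01 to 10.37 and 10.66 to 10.76) and neutrophil markers (14.03 to 14.17 and 14.19 to 14.57, then 14.17 to 14.36 and 14.42 to 14.59) were lower without overlap. At 2 weeks T and NK cell markers were lower too without overlap (8.49 to 8.61 and 8.67 to 8.84). So were proliferation markers at 2 weeks (10.91 to 10.94 and 10.99 to 11.62). At 4 weeks plasma cell markers (11.97 to 12.06 and 12.07 to 12.4) and skeletal muscle markers (11.15 to 12.14 and 12.52 to 12.59) were lower without overlap. The part of these lists in the result was not tested. Leukocyte markers were lower as well. All 8 of 8 markers tested had ratios below 0 for DMM against sham at 2 weeks, with 1 called lower, and at 4 weeks, with 2 called lower. Their mean log2 signal was 12.23 to 12.32 in the DMM pools and 12.49 to 12.71 in the sham pools at 2 weeks, and 12.49 to 12.68 against 12.81 to 12.84 at 4 weeks. At 8 weeks all 8 ratios were again below 0 with none called (5 at an unadjusted p under 0.05), and at 16 weeks the pools overlapped (12.72 to 12.84 and 12.81 to 12.9). With the leukocyte mean as a covariate in the limma model, an alternative chosen after seeing the data, the ratios at 4 weeks were -0.12 for Psmb8 (adjusted p = 0.291), -0.16 for Psmb9 (adjusted p = 0.219) and -0.09 for Psmb10 (adjusted p = 0.41). At 2 weeks they were -0.01, -0.18 and -0.11, and none was called. Since these markers are themselves an outcome of the groups, the part of leukocyte number in the lower signals cannot be told apart. B cell markers overlapped between the groups at 2 weeks (9.22 to 9.3 after DMM, 9.19 to 9.81 after sham surgery) and met at 4 weeks (9.23 to 9.96 and 9.96 to 10.11). With their mean as a covariate, also chosen after seeing the data, the ratios were -0.40, -0.45 and -0.30 at 2 weeks and -0.42, -0.36 and -0.24 at 4 weeks for Psmb8, Psmb9 and Psmb10, all called lower. With the muscle mean as a covariate, the ratios at 4 weeks were -0.33 for Psmb8 (adjusted p = 0.0451) and -0.30 for Psmb9 (adjusted p = 0.0519, not called). That of Psmb10 was -0.22 (adjusted p = 0.0655, not called). At 2 weeks Psmb9 stayed called with the muscle mean (-0.42, adjusted p = 0.0226), while Psmb8 (-0.35) and Psmb10 (-0.26) were not called.

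**Figure D2:**
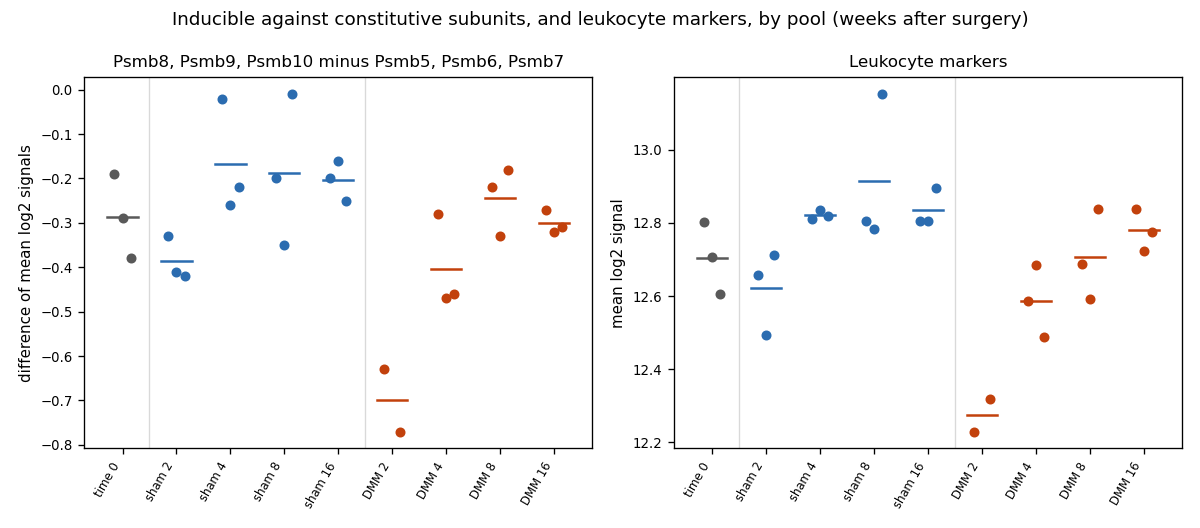
Left, the mean log2 signal of Psmb8, Psmb9 and Psmb10 minus that of Psmb5, Psmb6 and Psmb7 for each pool, and right, the mean log2 signal of 8 leukocyte markers, by group with a bar at the group mean. In both panels the DMM pools at 2 weeks are the lowest (-0.77 and -0.63 on the left, 12.23 and 12.32 on the right).

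Across all proteasome genes, DMM against sham at 2 weeks called 1 of 43 lower (Psmb9) and none higher, against 0.913% lower and 1.91% higher among all 11496 genes. At an unadjusted p under 0.05 the numbers were 5 of 43 and 20.6% of all genes. The median ratio of the 43 was -0.01 and 23 were below 0, beside a median of -0.03 for all genes. At 4 weeks 8 of 43 (18.6%) were called lower and none higher, against 7.06% lower and 13.2% higher among all genes. At the unadjusted level these were 18 of 43 and 36.2%. The median was -0.13, with 39 of 43 ratios below 0, whereas the median of all genes was -0.02, with 6227 of 11496 below 0. All DMM pools lay below all sham pools for 22 of the 43 (51.2%), beside 18.7% of all genes, while at 2 weeks this held for 5 (11.6%), beside 15.2%. Without DMM pool 3 none of the 43 was called at 4 weeks, and without DMM pool 1 there were 12. At 8 weeks limma called none of the 43 (3 at an unadjusted p under 0.05), with 0% of all genes called and 12.3% at that unadjusted level. At 16 weeks it called none (0 unadjusted), with 0.0522% of all genes called and 8.21% unadjusted. The 4 comparisons use different pools.

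The α ring carried 1 of the 8 calls at 4 weeks. Psma1 read 12.17, 12.15 and 12.04 after DMM and 12.31, 12.4 and 12.43 after sham surgery, with no overlap and a log2 ratio of -0.26 ± 0.07 (adjusted p = 0.0111). The other 6 tested α genes had ratios from -0.17 for Psma7 to -0.06 for Psma5 and were not called. A second probe set for Psma1 gave the same ratio of -0.26 but missed the threshold (adjusted p = 0.203), and a further one gave 0.02. At 2 weeks the α genes spread from -0.11 to 0.14 around a median of 0.03, and none was called.

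Of the 7 constitutive β genes, Psmb4, a structural subunit, was called lower at 4 weeks. Its DMM pools read 12.24, 12.11 and 12.07 and its sham pools 12.47, 12.34 and 12.36, for a log2 ratio of -0.25 ± 0.06 (adjusted p = 0.0107). Its second probe set gave -0.14 (adjusted p = 0.166). Psmb3 (-0.20 ± 0.08, adjusted p = 0.0684) and Psmb1 (-0.18 ± 0.07, adjusted p = 0.0614), both structural, missed the threshold, and the median of the 7 was -0.12. At 2 weeks the median was -0.05 and none was called.

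In the regulatory particle, none of the 6 ATPase genes was called against sham at 2 or 4 weeks, with medians of 0.03 and -0.09 and 0 and 1 at an unadjusted p under 0.05. Of the 11 non-ATPase genes, 2 were called lower at 4 weeks and none at 2 weeks (0 unadjusted). Psmd14, the deubiquitinase that frees ubiquitin from the substrate, read 11.95, 11.98 and 11.81 after DMM and 12.1, 12.11 and 12.08 after sham surgery, a log2 ratio of -0.19 ± 0.06 (adjusted p = 0.024). Psmd4, a ubiquitin receptor, read 11.26, 11.2 and 11.19 against 11.33, 11.52 and 11.5, a ratio of -0.23 ± 0.07 (adjusted p = 0.0345). Its further probe sets gave -0.14 (adjusted p = 0.24) and -0.02 (adjusted p = 0.832), with overlapping pools. By the brightest probe set of both genes, the DMM pools were all below the sham pools. Psmd3 had a ratio of -0.25 ± 0.12 but missed the threshold (adjusted p = 0.13). The median of the 11 was 0.02 at 2 weeks and -0.09 at 4 weeks.

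Psmd5, Psmd9 and Psmd10 encode chaperones that assemble the ATPase ring rather than parts of the finished particle. Psmd5 was called lower at 4 weeks, with 10.34, 10.27 and 10.38 after DMM and 10.46, 10.59 and 10.52 after sham surgery (log2 ratio -0.19 ± 0.06, adjusted p = 0.0383). Psmd9 had a ratio of -0.23 ± 0.14 and Psmd10 of 0.01 ± 0.07, and neither was called. The core particle's chaperone genes Pomp, Psmg1, Psmg2, Psmg3 and Psmg4, which the symbol rule does not take in, were called in none of the 4 DMM comparisons with sham. Psmc3ip, matched by name alone, was the last of the 8 genes called at 4 weeks, at 9.01, 8.93 and 8.73 against 9.06, 9.19 and 9.2 (-0.26 ± 0.07, adjusted p = 0.0164). Proliferation markers moved with these genes at 4 weeks, where 5 of 9 were called lower and their mean was 11.24 to 11.56 after DMM and 11.66 to 11.81 after sham surgery. Their part in the lower signals was not tested.

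**Figure D3:**
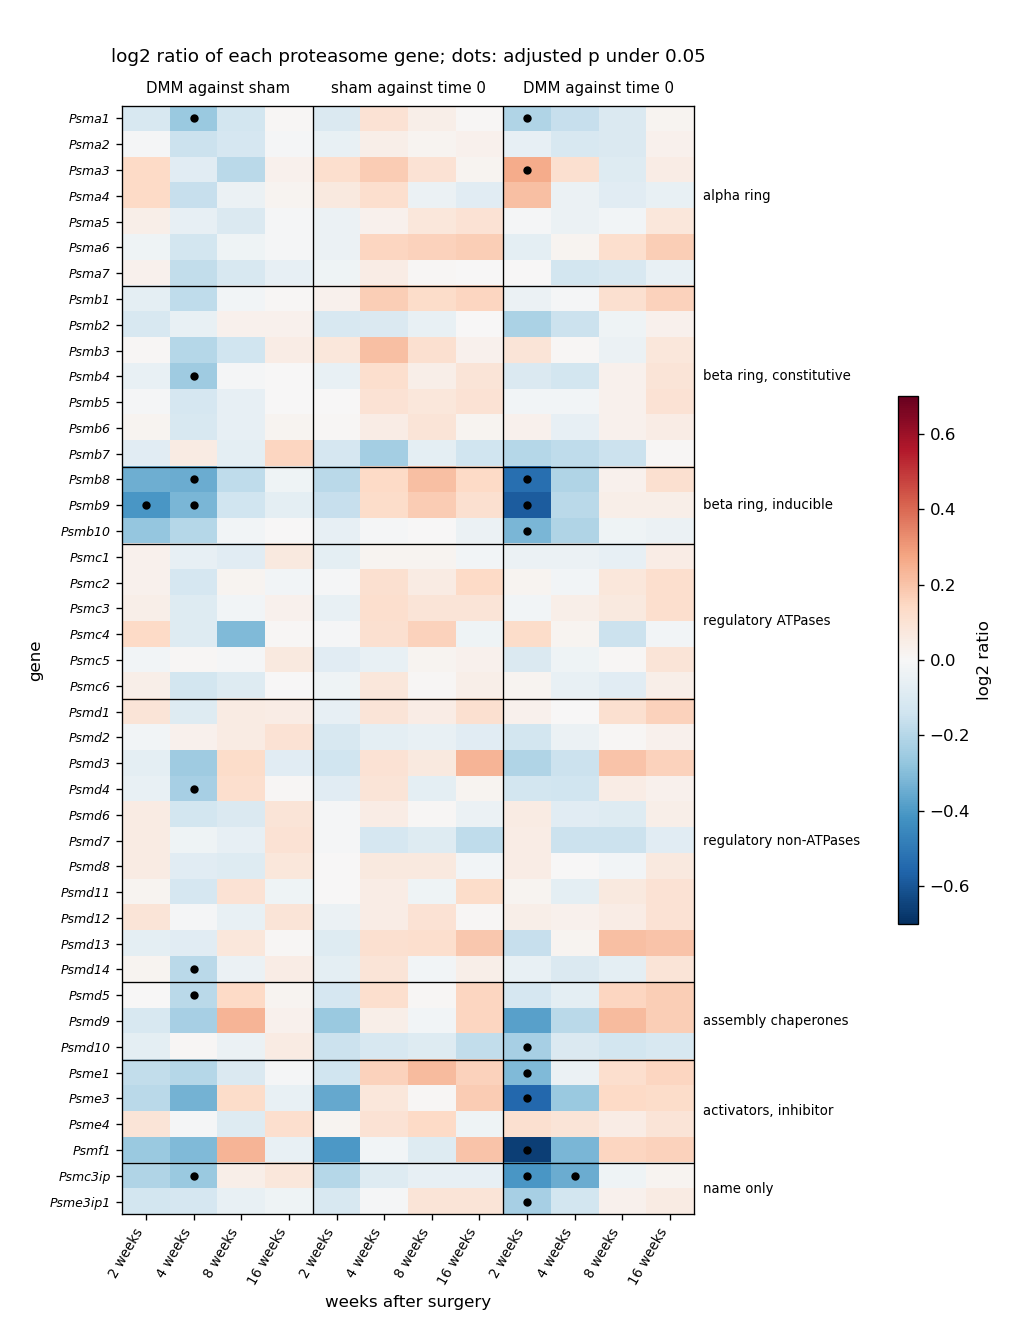
Each row is 1 of the 43 tested proteasome genes, grouped by role, and each column 1 comparison at 2, 4, 8 or 16 weeks; colour gives the log2 ratio and a dot an adjusted p under 0.05. DMM against sham has 1 dot at 2 weeks and 8 at 4 weeks, sham against time 0 has none, and DMM against time 0 has 11 at 2 weeks and 1 at 4 weeks.

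Sham pools against time 0 called none of the 43 genes at any of the 4 times. At an unadjusted p under 0.05 there were 4, 4, 1 and 5 at 2, 4, 8 and 16 weeks. All operated mice were older than the time 0 mice, so surgery and age cannot be told apart in any comparison with time 0. Among all genes 2.01%, 1.03%, 1.04% and 6.4% were called, and 19.4%, 14.9%, 17.2% and 22.1% at the unadjusted level. The median ratios of the 43 were -0.06, 0.08, 0.04 and 0.03. DMM was also set against time 0, which shares its DMM pools with the comparisons above and its time 0 pools with those for sham, so these results are not independent of each other. At 2 weeks DMM called 10 of 43 lower (23.3%) and 1 higher (2.33%) against time 0, where 16.5% of all genes were lower and 16.4% higher. At 4 weeks it called 1 lower (Psmc3ip, -0.35 ± 0.07, adjusted p = 0.00463) and none higher (3 unadjusted), beside 1.85% of all genes lower, 9.73% in either direction and 24.8% unadjusted. At 8 and 16 weeks limma called none (2 and 4 unadjusted), beside 0.8% and 1.85% of all genes called and 12.8% and 13.6% unadjusted.

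All 3 inducible genes were lower in DMM pools at 2 weeks than at time 0. Psmb9 read 10.49, 10.46 and 10.31 at time 0, above both DMM pools, and its log2 ratio was -0.58 ± 0.11 (adjusted p = 0.000516), a signal ratio of 0.67. Psmb8 read 11.2, 11.1 and 10.96 at time 0 and had a ratio of -0.53 ± 0.12 (adjusted p = 0.0019), a signal ratio of 0.692, though its second probe set gave -0.02 (adjusted p = 0.905). Psmb10 read 10.87, 10.58 and 10.62 at time 0 and had a ratio of -0.32 ± 0.08 (adjusted p = 0.00724), a signal ratio of 0.801. Without DMM pool 3 Psmb10 was not called (-0.31, adjusted p = 0.0534). None of the 3 overlapped with time 0. The constitutive partners were not called, with ratios of -0.02 for Psmb5, 0.03 for Psmb6 and -0.20 for Psmb7. Leukocyte markers were lower too, 5 of 8 by the test, and with their mean as a covariate the ratios were -0.29 for Psmb9 (adjusted p = 0.118), -0.12 for Psmb8 (adjusted p = 0.485) and -0.12 for Psmb10 (adjusted p = 0.45). Proliferation markers were lower in 9 of 9, with a mean of 10.91 to 10.94 in the DMM pools and 11.53 to 11.77 at time 0. Fibroblast matrix (14.37 to 14.48 and 13.05 to 13.27) and endothelial markers (9.88 to 9.97 and 9.52 to 9.61) were higher without overlap. Adipocyte (10.3 to 10.31 and 11.18 to 11.54) and B cell markers (9.22 to 9.3 and 9.52 to 10.06) were lower without overlap. The part of these lists was not tested.

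The activators and the inhibitor also moved between time 0 and DMM at 2 weeks. Psmf1, which encodes the inhibitor, read 9.32, 9.48 and 9.58 at time 0 and 8.83 and 8.77 after DMM, a log2 ratio of -0.66 ± 0.20 (adjusted p = 0.0198). Psme3, which encodes the nuclear activator, read 10, 10.22 and 10.25 against 9.75 and 9.47, a ratio of -0.55 ± 0.15 (adjusted p = 0.0105). Psme1, which encodes a subunit of the interferon-inducible activator, read 11.73, 11.54 and 11.51 against 11.38 and 11.2, a ratio of -0.31 ± 0.10 (adjusted p = 0.0265). In all 3 the DMM pools were below time 0, as they were for 32.2% of all genes. Psme4, which encodes the large activator found at sites of DNA repair and in testis, stayed between 10.93 and 11.3 over all arrays and had a ratio of 0.11 ± 0.10. Second probe sets gave -0.26 for Psme3 (adjusted p = 0.0366, called) and -0.22 for Psmf1 (adjusted p = 0.312, not called). With the leukocyte mean as a covariate the ratio of Psme1 was -0.14 (adjusted p = 0.501, not called), that of Psme3 -0.90 (adjusted p = 0.00442) and that of Psmf1 -1.14 (adjusted p = 0.00576). With the B cell mean they were -0.30 (adjusted p = 0.0445), -0.37 (adjusted p = 0.033) and -0.38 (adjusted p = 0.0519, not called).

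Against sham, none of the 4 regulators was called, and their groups overlapped. At 2 weeks the sham pools of Psmf1 read 9.5, 9.02 and 8.65, a range that took in both DMM pools, and those of Psme3 read 10.11, 9.83 and 9.46. The ratios were -0.26 for Psmf1, -0.19 for Psme3, -0.17 for Psme1 and 0.09 for Psme4 at 2 weeks (0 of 4 at an unadjusted p under 0.05), and -0.31, -0.33, -0.20 and -0.01 at 4 weeks (2 of 4). Psmf1 (1.17), Psmb9 (1.09), Psme3 (1.03) and Psmb8 (1.00) had the widest ranges over the 26 arrays of the 43 tested genes, and Psmd6 (0.23) the narrowest. The covariates moved these ratios in different directions at 4 weeks. With the leukocyte mean they were -0.53 for Psme3 (adjusted p = 0.0154), -0.57 for Psmf1 (adjusted p = 0.0373) and -0.11 for Psme1 (adjusted p = 0.447). With the B cell mean they were -0.19, -0.07 and -0.20, and with the muscle mean -0.22, -0.19 and -0.16, none of them called.

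**Figure D4:**
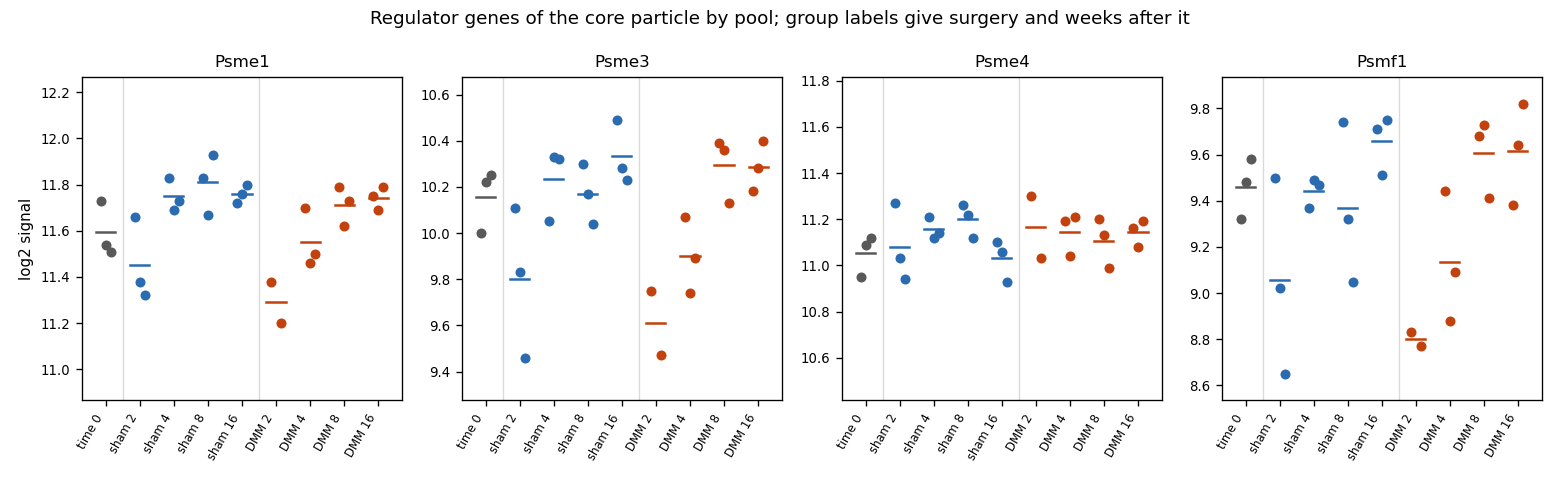
Log2 signal of Psme1, Psme3, Psme4 and Psmf1 for each pool by group, on a vertical axis that spans 1.4 in every panel, with a bar at the group mean. The sham pools of Psmf1 at 2 weeks spread from 8.65 to 9.5, whereas Psme4 keeps to 10.93 to 11.3 in all groups.

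The other calls against time 0 at 2 weeks were scattered over roles. Psma3, an α subunit gene, was the 1 member called higher, at 12.55, 12.51 and 12.53 at time 0 and 12.8 and 12.79 after DMM, a log2 ratio of 0.26 ± 0.07 (adjusted p = 0.00514). Psma1 was lower, at 12.27, 12.28 and 12.29 against 12.0 and 12.14, a ratio of -0.21 ± 0.07 (adjusted p = 0.0388). Neither pair of groups overlapped, beside 25.8% of all genes with the DMM pools all above time 0 and 32.2% with them all below. The call of Psma1 was lost without any of 4 of 5 pools (-0.28 to -0.14). The chaperone gene Psmd10 had a ratio of -0.23 ± 0.08 (adjusted p = 0.0344), a call lost without any 1 of the 5 pools (-0.24 to -0.21). Psmc3ip had a ratio of -0.41 ± 0.08 (adjusted p = 0.000866) and Psme3ip1 of -0.23 ± 0.07 (adjusted p = 0.0234). None of the 7 constitutive β genes, 6 ATPase genes or 11 non-ATPase genes was called, with 1, 0 and 0 at an unadjusted p under 0.05 and medians of -0.04, 0.00 and 0.02. Among all genes 43.2% reached that unadjusted level in this comparison. The median was -0.53 for the inducible genes and -0.43 for the activators and inhibitor.

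**Figure D5:**
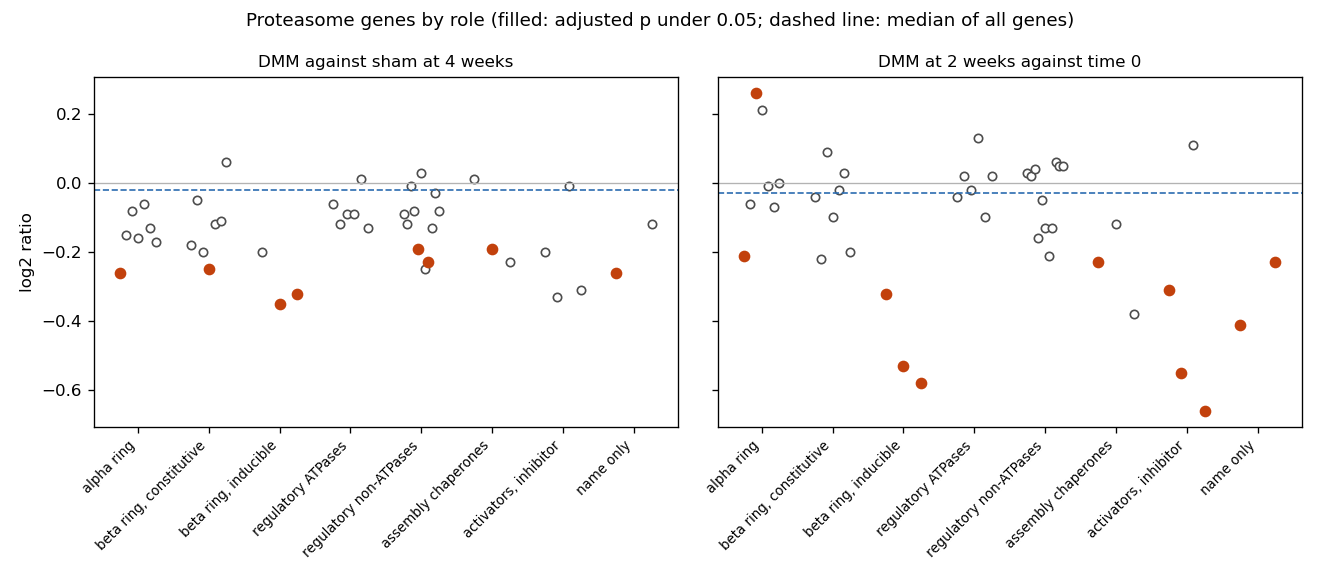
Each point is the log2 ratio of 1 tested gene by role, for DMM against sham at 4 weeks (left) and DMM at 2 weeks against time 0 (right); filled points have an adjusted p under 0.05 and the dashed line is the median of all genes (-0.02 and -0.03). On the left 39 of 43 points lie below 0; on the right the inducible genes, Psme1, Psme3 and Psmf1 are lower while the ATPase and non-ATPase genes hold no filled point.

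Levels were also compared between 16 and 2 weeks within each kind of surgery, comparisons added after seeing the data. After DMM 17 of 43 genes (39.5%) rose and 2 (4.65%) fell from 2 to 16 weeks, beside 26.3% higher and 19.6% lower among all genes. After sham surgery 11 (25.6%) rose and none fell, beside 16.8% and 16.7%. Psmb8 rose by 0.64 ± 0.12 after DMM and 0.33 ± 0.10 after sham surgery by its brighter probe set, whereas the mean of its probe sets gave 0.36 (adjusted p = 0.00675) and 0.15 (adjusted p = 0.189, not called). Psmb9 rose by 0.62 ± 0.11 and 0.28 ± 0.10, and Psmf1 by 0.82 ± 0.20 and 0.60 ± 0.18. Psme3 rose by 0.67 ± 0.15 and 0.53 ± 0.14, and Psme1 by 0.46 ± 0.10 and 0.30 ± 0.09. Psmb10 rose after DMM alone by the test (0.28 ± 0.08, adjusted p = 0.011) and had a ratio of 0.02 ± 0.08 after sham surgery, but the difference between these effects was not tested. The non-ATPase genes Psmd3 (0.36 and 0.38) and Psmd13 (0.36 and 0.28) and the chaperone genes Psmd9 (0.55 and 0.41) and Psmd5 (0.28 and 0.27) rose after both, as did Psme3ip1 (0.30 and 0.20). The core genes Psmb2 (0.25), Psma1 (0.23), Psmb1 (0.20) and Psmb4 (0.19), the ATPase gene Psmc5 (0.19) and Psmc3ip (0.43) were called after DMM, and Psma5 (0.14) after sham surgery. Psma3 (-0.21 ± 0.07) and Psma4 (-0.26 ± 0.09) fell after DMM. Age and time after surgery cannot be told apart here. Markers of several cell types moved without overlap over this interval. Chondrocyte means fell from 12.37 to 10.79 after DMM and from 12.28 to 10.4 after sham surgery. Fibroblast matrix means fell from 14.42 to 13.14 and from 13.9 to 12.39, and osteoblast and endothelial means fell too. Proliferation means rose from 10.93 to 11.8 and from 11.3 to 11.87. The part of these lists was not tested. Leukocyte markers rose in 8 of 8 after DMM and in 3 of 8 after sham surgery, and with their mean as a covariate the ratios after DMM were 0.17 for Psmb8, 0.28 for Psmb9, 0.05 for Psmb10 and 0.26 for Psme1, none of them called. After sham surgery they were 0.13 for Psmb8 (adjusted p = 0.255), 0.13 for Psmb9 (adjusted p = 0.3) and 0.22 for Psme1 (adjusted p = 0.0996), also not called, while Psme3 and Psmf1 stayed called after both.

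Genes that work with the proteasome were taken from fixed lists. Of 12 class I antigen processing genes tested, Tap2, a subunit of the peptide transporter, was lower after DMM than sham at 2 weeks (log2 ratio -0.31 ± 0.08, adjusted p = 0.0495). At 4 weeks its partner Tap1 was lower (-0.25 ± 0.08, adjusted p = 0.0445), and the chaperones of peptide loading Calr (0.35 ± 0.12, adjusted p = 0.0387) and Pdia3 (0.38 ± 0.12, adjusted p = 0.0264) were higher. Against time 0, Tap1 (-0.31) and Tap2 (-0.46) were lower and Pdia3 (0.37) higher in DMM pools at 2 weeks. Tap1 and Tap2 are the genes that lie between and beside Psmb9 and Psmb8. Of 10 interferon response genes none was called by limma at 2 or 4 weeks (0 and 1 at an unadjusted p under 0.05). Among all genes these comparisons with sham called 2.82% and 20.3%, with 20.6% and 36.2% at the unadjusted level. Against time 0, the interferon response gene Rsad2 (-0.69 ± 0.26, adjusted p = 0.0499) was lower in DMM pools at 2 weeks.

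Genes that attach ubiquitin, deliver tagged proteins or remove ubiquitin gave 1 call against sham at the early times. For all counts against sham in this paragraph, the shares among all genes were 2.82% called at 2 weeks and 20.3% at 4 weeks. At an unadjusted p under 0.05 they were 20.6% and 36.2%. Of 14 tested none was called at 2 weeks (0 unadjusted), and at 4 weeks the shuttle gene Ubqln2 was higher (0.27 ± 0.08, adjusted p = 0.0207). Against time 0, DMM pools at 2 weeks had higher Ubqln2 (0.31) and Ube2d2a (0.19), the gene of a ubiquitin-conjugating enzyme, and lower Uchl5 (-0.32), the gene of a proteasome-bound deubiquitinase, and Ufd1 (-0.25). Of the transcription factor genes Nfe2l1, Nfe2l2 and Nfya and the genes Ngly1 and Keap1, which act on the Nfe2l1 and Nfe2l2 proteins, none was called at 2 or 4 weeks (1 of the 5 unadjusted at each). Nfe2l1, which raises proteasome genes when the protease is impaired, was higher in DMM pools at 2 weeks than at time 0 (0.29 ± 0.08, adjusted p = 0.00998), as was Nfe2l2 (0.25, adjusted p = 0.00609), and Nfya was lower (-0.42 ± 0.10, adjusted p = 0.00477). The ubiquitin ligases of muscle, of which 2 were tested, were not called against sham at 2 or 4 weeks (0 unadjusted), and Fbxo30 was lower in DMM pools at 2 weeks than at time 0 (-0.66 ± 0.20, adjusted p = 0.0151).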

How the data were processed

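The authors hybridised 26 pooled RNA samples to mouse whole-genome Affymetrix arrays, normalized them by systematic variation normalization and deposited log2 signals for 45101 probe sets, which were used unchanged. Pools of 1 group came from different mice, so the spread is between pools. The platform annotation gave 34958 probe sets 1 symbol, 932 several and 9211 none. The probe sets whose signal averaged more than 7.93 on the log2 scale, the median of the array medians (22499 sets, 11496 genes) were fitted with limma 3.58.1 in R 4.3.3, with 1 coefficient per group and 17 residual degrees of freedom, and p-values were adjusted by the Benjamini-Hochberg method over all of them. A gene was called at an adjusted p under 0.05. The method was tested on simulated data. An exact permutation test could reach no p below 0.1 with 3 pools against 3, or 0.2 with 2 against 3, and was not used. The number of arrays limits the precision.

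The proteasome genes and all lists were chosen with earlier results of these data known. Named with values were the catalytic pairs, the activators and the inhibitor, up to 3 called genes at either end of each role, called genes that went against the majority, and the called extremes of each pathway list. Further genes were named after their values were seen. Alternatives were another filter or no filter, quantile scaling, centring, array weights, fits of the compared groups alone, a replicate block, covariates, and leaving out each pool. The study paired pools at random. Same-numbered pools deviated together (every correlation over 0.1) for DMM against sham at 8 weeks (lowest 0.32) and DMM at 16 weeks against time 0 (lowest 0.12), and in no other comparison checked. Upstream sequences are from RefSeq (GRCm38.p6). Means of leukocyte, B cell and muscle markers served as covariates. Other marker lists are given beside some results, and not every list that separated the groups is given. Some motifs and a gene list that were examined are not reported here.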

Additional observations from a re-analysis of the deposited data

Results flagged for a closer look

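Groups of 2 or 3 pools are too small to test a single pool as an outlier. The values that drew attention are the changes with time within each kind of surgery. From 2 to 16 weeks after DMM, Psmb8 rose by 0.64, Psmb9 by 0.62, Psmb10 by 0.28, Psme1 by 0.46, Psme3 by 0.67 and Psmf1 by 0.82 on the log2 scale. Over the same interval after sham surgery Psmb8 rose by 0.33, Psmb9 by 0.28, Psme1 by 0.30, Psme3 by 0.53 and Psmf1 by 0.60. By the mean of its probe sets Psmb8 was not called after sham surgery (0.15, adjusted p = 0.189). With the leukocyte covariate Psmb8 (0.13), Psmb9 (0.13) and Psme1 (0.22) were not called after sham surgery, nor Psmb8, Psmb9, Psmb10 and Psme1 after DMM (0.17, 0.28, 0.05 and 0.26). The DMM values rest on 2 pools at 2 weeks. The differences between the DMM and sham changes were not tested.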

How the results depend on the processing

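Both the call counts and the ratios depended on the fit. Of 989 checks over 54 results for single genes, 749 kept direction and call, 234 lost the call, 6 gained one and none reversed. A check counted as kept whatever the size of its ratio. With the leukocyte covariate, Psmb8 went from -0.34 to -0.01 for DMM against sham at 2 weeks, called in neither fit. Psmf1 went from -0.66 to -1.14 for DMM at 2 weeks against time 0, called in both.

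For DMM against sham at 2 weeks the 1 gene called became 0 with no filter, fitting only the compared groups, a replicate block, centring, array weights, the Gapdh covariate or the leukocyte covariate, and 3 with the B cell covariate. At 4 weeks the 8 became 2 fitting only the compared groups, 15 with centring and 20 with array weights. With the replicate block the 4-week count was 9. At 8 weeks array weights called 2. Array weights also called 11, 1 and 8 genes for sham against time 0 at 2, 4 and 16 weeks, where the muscle covariate called 1 at 2 weeks and the B cell covariate 1 each at 4 and 16 weeks. For DMM against time 0 at 2 weeks the 11 became 7 with only the compared groups and 7 with the leukocyte covariate. At 4 weeks the 1 became 0 with a stricter brightness filter and with only the compared groups, 3 with quantile scaling, 13 with array weights and 2 with the muscle covariate, and at 8 and 16 weeks array weights called 1 each. For the DMM effect against that at 8 weeks, array weights called 1, 12 and 1 gene at 2, 4 and 16 weeks, the muscle covariate 1 and 3 and the leukocyte covariate 1 and 2 at 2 and 4 weeks, and the stricter filter and quantile scaling 1 each at 4 weeks. From 2 to 16 weeks after DMM the 19 became 12 with only the compared groups and 11 with the leukocyte covariate, and after sham surgery the 11 became 0 and, with array weights, 25. Comparisons within a surgery and the leukocyte and B cell covariates were chosen after seeing the data. The causes were not tested.

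Leaving out each pool in turn gave 0 to 1 genes for DMM against sham at 2 weeks (0 without sham pool 1, DMM pool 2 or DMM pool 3), 0 to 12 at 4 weeks (5, 1 and 3 without sham pools 1, 2 and 3, and 12, 3 and 0 without DMM pools 1, 2 and 3), 0 to 1 at 8 weeks (1 without sham pool 1) and 0 at 16 weeks. It gave 0 to 4 for sham at 2 weeks against time 0 (4 without sham pool 1) and 0 at the later times, 6 to 8 for DMM at 2 weeks against time 0, 1 at 4 weeks and 0 at 8 and 16 weeks. The tests of differing DMM effects gave 0 to 1 at 2 weeks, 0 to 7 at 4 weeks (7 without sham pool 1 at 8 weeks, 4 without DMM pool 1 at 4 weeks) and 0 at 16 weeks. From 2 to 16 weeks the range was 10 to 16 after DMM and 1 to 17 after sham surgery (17, 2 and 1 without sham pools 1, 2 and 3 at 2 weeks). The call of Psmb8 at 4 weeks was lost without any of 5 of 6 pools, as was that of Psmb9, with ratios of -0.40 to -0.28 and -0.38 to -0.29. That of Psmb9 at 2 weeks was lost without 3 of 5 pools (-0.50 to -0.32). Against time 0, Psmb8 (-0.59 to -0.47) and Psmb9 (-0.67 to -0.49) stayed called without any 1 pool, Psmb10 (-0.38 to -0.23) lost its call without DMM pool 3, and Psmf1 lost its call without 4 of 5. The inducible minus constitutive shift lay between -0.38 and -0.25 at 2 weeks, -0.30 and -0.16 at 4 weeks, -0.13 and 0.04 at 8 weeks and -0.12 and -0.07 at 16 weeks for DMM against sham, and between -0.15 and -0.05, 0.05 and 0.17, 0.01 and 0.18, and 0.03 and 0.13 for sham against time 0. Only quantile scaling, the mean of the probe sets of a gene and leaving out pools could move this shift, since centring cancels in a difference. Covariates and array weights were not applied to this shift. With quantile scaling Psma3 was no longer called higher in DMM pools at 2 weeks than at time 0. Array signals near background limit Psma8 and Psmb11.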
